A study of Mus musculus with 7 samples.

Results

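Genes of sterol synthesis, sterol sensing, sterol transport and efflux, and SREBP-driven fatty acid synthesis were described across 7 whole-transcript arrays of splenic type 1 conventional dendritic cells (cDC1), the dendritic cells that cross-present antigen to CD8 T cells. The group is a list of 39 gene symbols grouped by their known roles, with no threshold on measured values. The list was chosen with earlier results of these data known, so shares of members set against all genes are description only. A named probe set was found for 33 of them, among 19505 named genes in all. The 6 listed genes with no named probe set, Acat2, Tm7sf2, Srebf1, Nr1h2, Soat1 and Scd2, have no expression value here. No member had more than 1 named probe set.

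The labels give 4 arrays of cells from mice with a Cre recombinase under the CD11c promoter and a floxed OPA1 allele (KO), and 3 arrays of cells from wild-type mice (WT). Opa1 encodes a GTPase needed for fusion of mitochondrial inner membranes. All mice were C57BL/6 and all carried tumors of B16-OVA, a mouse melanoma line that expresses ovalbumin. CD11c-Cre acts in CD11c-expressing cells in general, not in cDC1 alone. The labels give no age or sex and do not say whether each array came from its own mouse, so p-values measure the spread between arrays, which may be technical in part. The targeted gene, Opa1, read 7.70, 7.10, 6.85 and 8.24 (log2) on KO 1 to 4, against 8.14, 8.80 and 9.15 on WT 1 to 3. KO 4 read higher than WT 1 for the targeted gene, so the arrays are called KO and WT only by their labels.

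Cells make cholesterol from acetyl-CoA, first through the mevalonate pathway to farnesyl diphosphate and squalene, and then by closing squalene into lanosterol and trimming that to cholesterol. When sterol in the endoplasmic reticulum is low, SCAP carries the precursor of SREBP2 to the Golgi, where it is cleaved into a transcription factor for these enzymes. INSIG proteins hold SCAP back when sterol is plentiful. SREBP1 acts in a similar way on fatty acid synthesis and desaturation. The liver X receptors (LXR) sense oxysterols and induce the exporters ABCA1 and ABCG1, apolipoprotein E and MYLIP, an E3 ligase that removes lipoprotein receptors.

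Promoter windows are shown first, since the sterol synthesis genes had lower KO means together. The windows span 250 bases before to 50 after the gene start, from RefSeq on GRCm38.p6, printed 5′ to 3′ on the strand of the gene, and 30 of the 39 listed genes have an entry. The genes are those of smallest unadjusted p with a window: 3 of sterol synthesis (Idi1, Cyp51, Hsd17b7), 1 of LXR and efflux (Mylip) and 1 of fatty acid synthesis (Fads2). Hmgcs1 was added after the motif search, as the member whose window held the sterol regulatory element. The windows lie at Idi1 chr13:8885356-8885655 (plus strand), Cyp51 chr5:4104648-4104947 (minus strand), Hsd17b7 chr1:169969156-169969455 (minus strand), Mylip chr13:45389492-45389791 (plus strand), Fads2 chr19:10101454-10101753 (minus strand) and Hmgcs1 chr13:119690101-119690400 (plus strand). Capitals mark matches, on either strand, to the sterol regulatory element to which SREBP binds (searched as TCACNCCAC), to the NF-Y box CCAAT and to the E-box CACGTG.
Idi1: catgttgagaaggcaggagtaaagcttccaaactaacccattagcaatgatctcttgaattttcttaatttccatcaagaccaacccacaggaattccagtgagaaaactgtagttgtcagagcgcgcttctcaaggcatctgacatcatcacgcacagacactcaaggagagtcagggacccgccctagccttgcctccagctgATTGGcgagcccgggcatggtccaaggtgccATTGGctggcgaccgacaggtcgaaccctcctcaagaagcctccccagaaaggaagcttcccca
Cyp51: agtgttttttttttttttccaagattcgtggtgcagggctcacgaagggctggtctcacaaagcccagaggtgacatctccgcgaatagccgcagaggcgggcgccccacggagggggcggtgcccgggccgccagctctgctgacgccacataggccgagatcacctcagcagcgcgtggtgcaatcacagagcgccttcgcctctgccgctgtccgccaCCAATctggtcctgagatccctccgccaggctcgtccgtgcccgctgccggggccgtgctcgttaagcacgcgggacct
Hsd17b7: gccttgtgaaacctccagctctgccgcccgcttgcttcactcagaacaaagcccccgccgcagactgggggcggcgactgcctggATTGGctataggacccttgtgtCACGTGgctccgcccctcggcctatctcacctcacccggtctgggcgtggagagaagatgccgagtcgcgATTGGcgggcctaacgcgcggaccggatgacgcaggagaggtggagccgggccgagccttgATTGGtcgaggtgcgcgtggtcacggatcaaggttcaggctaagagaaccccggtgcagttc
Mylip: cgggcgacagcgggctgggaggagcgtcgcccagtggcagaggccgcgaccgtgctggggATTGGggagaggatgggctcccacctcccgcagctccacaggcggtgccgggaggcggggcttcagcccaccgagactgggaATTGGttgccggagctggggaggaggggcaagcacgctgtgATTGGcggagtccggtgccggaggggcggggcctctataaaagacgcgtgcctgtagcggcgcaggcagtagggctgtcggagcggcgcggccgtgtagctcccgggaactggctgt
Fads2: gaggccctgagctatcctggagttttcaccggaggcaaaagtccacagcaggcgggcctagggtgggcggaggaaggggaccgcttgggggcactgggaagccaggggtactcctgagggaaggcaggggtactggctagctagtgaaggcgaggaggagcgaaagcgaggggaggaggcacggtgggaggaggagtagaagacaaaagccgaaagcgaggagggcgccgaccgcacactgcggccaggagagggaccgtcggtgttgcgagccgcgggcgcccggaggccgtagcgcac
Hmgcs1: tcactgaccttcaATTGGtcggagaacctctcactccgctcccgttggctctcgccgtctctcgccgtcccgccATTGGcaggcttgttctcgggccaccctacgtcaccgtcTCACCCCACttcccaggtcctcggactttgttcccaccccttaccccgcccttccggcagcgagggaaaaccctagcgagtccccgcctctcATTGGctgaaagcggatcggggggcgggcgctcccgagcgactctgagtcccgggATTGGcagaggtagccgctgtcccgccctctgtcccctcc

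The NF-Y box was in the window of 13 of 15 sterol synthesis genes (86.7%) and in 37.9% of the first windows of all 27025 genes, counting listed genes with or without a probe set. It was also in 4 of 5 genes of SREBP control, 1 of 5 genes of LXR and efflux, and 1 of 3 fatty acid genes with a window. The sterol regulatory element in these letters was in 1 of 15 sterol synthesis windows, against 1.22% of all genes. An E-box was in 2 of 15 sterol synthesis windows, against 7.24% of all genes. Cyp51 held 1 NF-Y match, Idi1 2, Hsd17b7 and Mylip 3 each and Hmgcs1 4, while the Fads2 window held no match to any of the 3 motifs. None of the 3 motifs contains another, letters outside these windows were not searched, and a match is a description of sequence only.

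Before the results, the arrays must be set apart. Taken over genes, which share arrays and are no replicates, the correlation of WT 1 and WT 2 was 0.982. Either array correlated with KO 1 to 4 and WT 3 at 0.924 to 0.954, while those 5 arrays correlated among themselves at 0.988 to 0.993. Melanocyte markers (10 of 10 measured) had a log2 summed level of 10.57 to 11.69 on the KO arrays and 13.20 to 15.98 on the WT arrays. As a mean log2 difference from the KO mean of each gene, the list stood at 0.41, 0.19, -0.05 and -0.55 on KO 1 to 4, against 3.99, 4.30 and 1.55 on WT 1 to 3. The 10 cDC1 markers had a log2 summed level of 15.82 to 15.91 on KO arrays and 13.83 to 15.83 on WT arrays, and Cd8a read 11.95 to 12.12 on KO arrays against 7.89, 6.96 and 12.11 on WT 1 to 3. Relative to the KO mean of each gene, the cDC1 list stood at -0.98, -2.87 and -0.06 on WT 1 to 3. That list stood at -0.04 to 0.04 on the KO arrays. The label cDC1 thus met high cDC1 markers on KO 1 to 4 and WT 3, while the list was lower on WT 1 and lowest on WT 2. Xcr1 read 12.12 on WT 1 and 7.97 on WT 2, against 12.70 to 12.79 on KO arrays. The 5 cDC2 markers summed to 10.60 to 11.23 (log2) on KO arrays and 11.56 to 14.01 on WT arrays. The 10 macrophage and monocyte markers summed to 11.68 to 12.22 on KO arrays and 11.87 to 13.56 on WT arrays. Relative to the KO mean of each gene, the cDC2 list stood at -0.03, 2.31 and 0.59 on WT 1 to 3. The macrophage and monocyte list stood at -0.41, 0.97 and 0.60. On the KO arrays these lists stood at -0.54 to 0.26 and -0.35 to 0.17. By these means WT 1 was not above the KO arrays, and WT 2 was the highest array. Of these 4 lists, no marker was at or below the negative control median on all KO arrays. The part of other cells in the differences below was not tested, and in bulk samples fewer cells of a type and less RNA per cell cannot be told apart. Member counts are given over all arrays, against WT 1 and WT 2, and against WT 3.

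Over all 7 arrays the mean of 30 of 33 members was lower in KO and that of 3 was higher, against 7812 lower and 11693 higher among all named genes. The median difference, KO minus WT, was -0.69 log2 over the members and 0.06 over all genes. After Benjamini-Hochberg adjustment over all genes in limma, 0 of 33 members and 0.0% of genes passed 0.05, with a smallest adjusted p of 0.223 for members and for all genes. At an unadjusted p under 0.05 there were 20 members lower in KO, against 10.6% of all genes, and 2 higher, against 8.98%. In 14 members every KO array lay below every WT array, against 5.92% of all genes, and in 0 members every KO array lay above, against 7.85%. When WT 3 was left out, 22 members were called lower in KO at an adjusted p under 0.05 (13.8% of all genes) and 2 higher (11.4%).

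**Figure D1:**
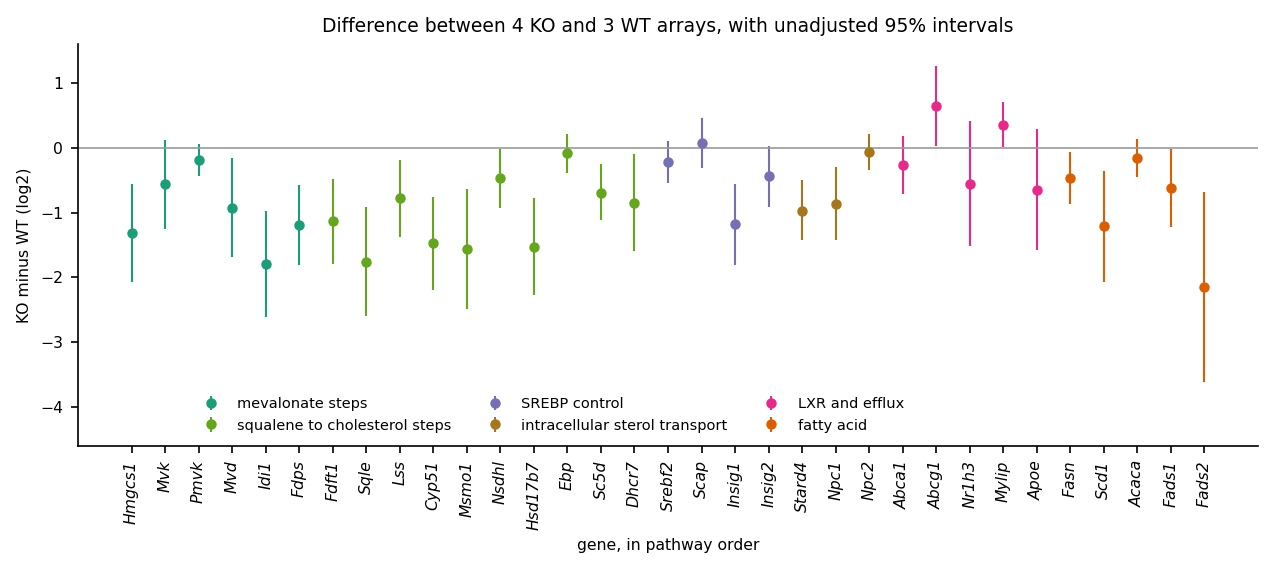
KO minus WT difference in log2 units for the 33 members in pathway order, from 4 KO and 3 WT arrays, coloured by role. Points are limma estimates and lines are unadjusted 95% intervals; 22 intervals lie away from 0, none of these differences passed adjustment over all genes, and Fads2, at -2.15, has the widest interval.

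Each of the 6 measured mevalonate enzymes was lower in KO on average, with a median difference of -1.06. At an unadjusted p under 0.05 in limma, 4 of them were lower, against 10.6% of all genes. Idi1, the isomerase that makes dimethylallyl diphosphate (probe set TC1300000045.mm.2), read 6.37, 6.23, 5.86 and 6.60 on KO 1 to 4, against 8.80, 8.20 and 7.17 on WT 1 to 3. The groups did not overlap, and WT 3 lay between WT 2 and the highest KO array. All 4 KO values were at or below the negative control medians of 6.49 to 6.88 on those arrays. The difference is therefore a bound, at least 2.51-fold lower in KO, taken against the negative control medians (limma, adjusted p = 0.223). Fdps, which makes farnesyl diphosphate, read 10.50, 10.71, 10.49 and 10.59 on KO 1 to 4, against 12.38, 11.81 and 11.09 on WT 1 to 3. The KO arrays lay close together and every WT array was above them. The Fdps difference was -1.19 with a standard error of 0.267, or 2.28-fold lower in KO (limma, adjusted p = 0.223). Hmgcs1, which condenses acetyl-CoA with acetoacetyl-CoA, read 8.59, 9.01, 9.28 and 9.23 on KO 1 to 4, against 10.89, 10.61 and 9.51 on WT 1 to 3. Its groups did not overlap either, but WT 3 stood only 0.23 above the highest KO array. The Hmgcs1 difference was -1.31 with a standard error of 0.328 (limma, adjusted p = 0.223).

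In the other 3 mevalonate enzymes WT 3 did not stand clear of the KO arrays. Mvd, the decarboxylase that makes isopentenyl diphosphate, averaged 9.44 ± 0.09 (SD, n = 4) in KO and 10.37 ± 0.83 (SD, n = 3) in WT, where WT 3 at 9.42 lay among the KO arrays. Mvk, mevalonate kinase, averaged 8.40 ± 0.18 in KO and 8.96 ± 0.71 in WT, and WT 3 at 8.15 was the lowest of all 7 arrays. Pmvk, phosphomevalonate kinase, was close in both groups, at 10.21 ± 0.07 in KO and 10.39 ± 0.16 in WT, with a 95% interval of the difference from -0.43 to 0.06.

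From squalene to cholesterol, each of the 10 measured enzymes was lower in KO on average, with a median difference of -0.99. Of these, 9 were lower at an unadjusted p under 0.05 in limma, against 10.6% of all genes. Sqle, squalene epoxidase, a rate-limiting step after mevalonate (probe set TC1500000432.mm.2), read 7.67, 7.66, 7.83 and 8.21 on KO 1 to 4, against 10.06, 10.14 and 8.60 on WT 1 to 3. WT 1 and WT 2 stood far above the rest, and WT 3 lay 0.39 above KO 4, the highest KO array. The difference was -1.76 with a standard error of 0.363, or 3.38-fold lower in KO (limma, adjusted p = 0.223). Cyp51, the lanosterol demethylase, read 8.89, 8.72, 8.78 and 9.15 on KO 1 to 4, against 10.91, 10.65 and 9.51 on WT 1 to 3. Its difference was -1.47 with a standard error of 0.310 (limma, adjusted p = 0.223), and again no KO array reached a WT array. Hsd17b7, a keto-sterol reductase, read 7.57, 8.25, 7.66 and 8.41 on KO 1 to 4, against 10.00, 9.72 and 8.78 on WT 1 to 3. The KO arrays were more spread for Hsd17b7 (SD 0.42, n = 4) than for Cyp51 (SD 0.19, n = 4) and still lay below WT 3. The Hsd17b7 difference was -1.53 with a standard error of 0.324 (limma, adjusted p = 0.223).

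Msmo1, the methylsterol oxidase, averaged 8.22 ± 0.15 (SD, n = 4) in KO and 9.78 ± 1.0 (SD, n = 3) in WT, and Fdft1, squalene synthase, averaged 10.10 ± 0.16 in KO and 11.23 ± 0.67 in WT. Sc5d, the sterol desaturase, averaged 9.90 ± 0.22 in KO and 10.59 ± 0.34 in WT. In Msmo1, Fdft1 and Sc5d all KO arrays lay below all WT arrays. Lss, lanosterol synthase, Dhcr7, which reduces dehydrocholesterol to cholesterol, and Nsdhl, a sterol dehydrogenase, had differences of -0.78, -0.85 and -0.47, and WT 3 lay among the KO arrays in each. Ebp, the sterol isomerase, stood out from its neighbours, with 10.02, 10.01, 9.87 and 9.65 on KO 1 to 4 and 9.79, 10.04 and 10.10 on WT 1 to 3. Its interval for the difference ran from -0.39 to 0.22, and Ebp was the enzyme of this branch for which WT 1 and WT 2 were not the highest arrays.

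**Figure D2:**
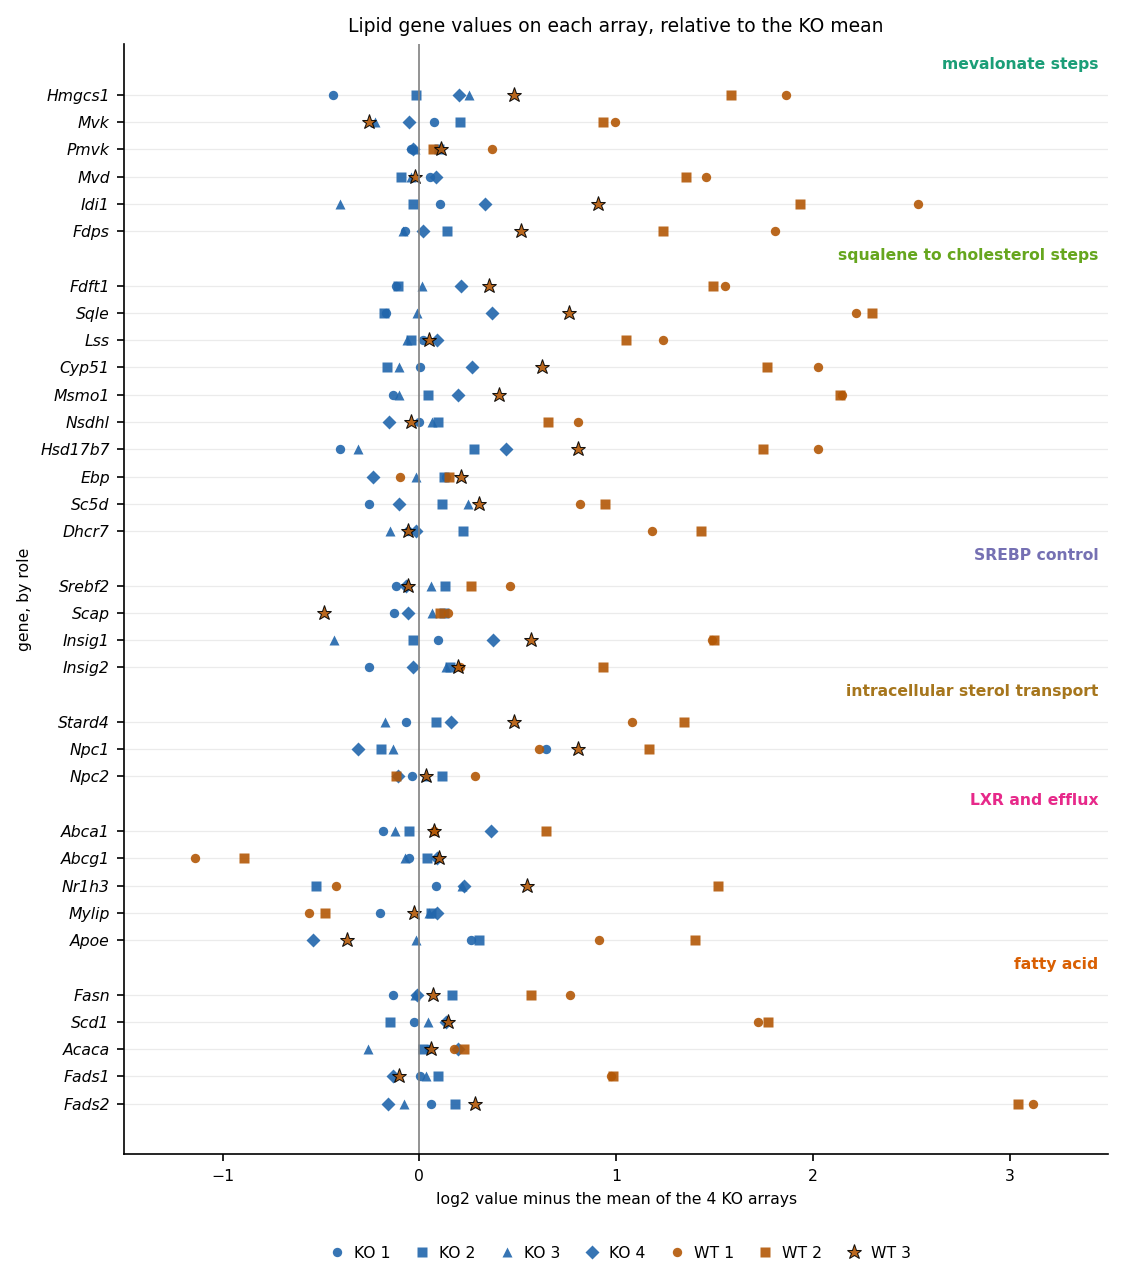
Value of each of the 33 members on each array, as log2 value minus the mean of the 4 KO arrays, with genes down the page by role, KO arrays in blue and WT arrays in orange. WT 1 and WT 2 lie furthest to the right for most sterol and fatty acid enzymes, whereas the WT 3 star is to the right of all KO points for Idi1, Sqle, Cyp51 and Hsd17b7 and among them for Mvd, Lss, Nsdhl and Dhcr7.

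Among the genes that control SREBP, Insig1, which retains SCAP in the endoplasmic reticulum and is itself an SREBP target, read 9.12, 8.99, 8.59 and 9.40 on KO 1 to 4, against 10.51, 10.52 and 9.59 on WT 1 to 3. No KO array reached a WT array, and the difference was -1.18 with a standard error of 0.272 (limma, adjusted p = 0.223). Insig2, its paralog, read 8.16, 8.57, 8.55 and 8.38 on KO 1 to 4, against 8.62, 9.35 and 8.61 on WT 1 to 3, a difference of -0.44 with an unadjusted p of 0.0626 in limma. Its groups did not overlap, but only by 0.03 on WT 3. Srebf2, which encodes SREBP2, read 12.05, 12.30, 12.23 and 12.10 on KO 1 to 4, against 12.63, 12.43 and 12.11 on WT 1 to 3. WT 3 lay among the KO arrays, and the 95% interval of the difference ran from -0.54 to 0.11. Scap, the escort protein, read 9.32, 9.57, 9.51 and 9.39 on KO 1 to 4, against 9.59, 9.55 and 8.96 on WT 1 to 3. Here WT 3 was the lowest array, and the interval of the difference over all arrays ran from -0.31 to 0.46. Against WT 1 and WT 2, Srebf2 differed by -0.36 (limma, adjusted p = 0.0656) and Scap by -0.12. Against WT 3 they differed by 0.06 and 0.49. SREBP cleavage was not measured.

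Of the genes that move sterol within the cell, Stard4, a soluble sterol carrier, read 8.10, 8.25, 7.99 and 8.33 on KO 1 to 4, against 9.25, 9.51 and 8.65 on WT 1 to 3. The groups did not overlap, and the difference was -0.97 with a standard error of 0.202 (limma, adjusted p = 0.223). Npc1, the lysosomal membrane protein that exports cholesterol, read 7.82, 6.98, 7.04 and 6.86 on KO 1 to 4, against 7.78, 8.34 and 7.98 on WT 1 to 3. KO 1 lay above WT 1, and the other 3 KO arrays lay below all WT arrays. For Npc1, 1 KO value was at or below the negative control median of its array. Npc2, the soluble partner that hands cholesterol to NPC1, averaged 11.03 ± 0.09 (SD, n = 4) in KO and 11.09 ± 0.20 (SD, n = 3) in WT, with an interval of the difference from -0.34 to 0.22.

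The 5 measured genes of LXR and efflux did not share a direction: 3 had a lower and 2 a higher mean in KO. Abcg1, which exports cholesterol to lipoproteins, read 9.41, 9.50, 9.39 and 9.55 on KO 1 to 4, against 8.32, 8.57 and 9.56 on WT 1 to 3. WT 1 and WT 2 were low and WT 3 read like the KO arrays. The difference was 0.65 over all arrays (limma, unadjusted p = 0.0428, adjusted p = 0.248) and -0.10 against WT 3. Mylip read 11.71, 11.97, 11.96 and 12.00 on KO 1 to 4, against 11.35, 11.43 and 11.88 on WT 1 to 3, where WT 1 and WT 2 were again the low arrays, with a difference of 0.36 and an adjusted p of 0.251 in limma. Apoe, apolipoprotein E, read 10.70, 10.74, 10.42 and 9.90 on KO 1 to 4, against 11.35, 11.84 and 10.07 on WT 1 to 3. For Apoe, WT 1 and WT 2 were the high arrays, and WT 3 lay among the KO arrays. Nr1h3, which encodes LXR alpha, read 7.86, 7.25, 7.99 and 8.0 on KO 1 to 4, against 7.35, 9.29 and 8.32 on WT 1 to 3. Abca1, the exporter to lipid-poor apolipoproteins, read 6.48, 6.61, 6.54 and 7.03 on KO 1 to 4, against 6.74, 7.31 and 6.74 on WT 1 to 3. Both overlapped between groups, WT 2 was the highest array in each, and 2 KO values of Abca1 were at or below the negative control median.

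The 5 measured genes of fatty acid synthesis and desaturation were each lower in KO on average, with a median difference of -0.62. Of these, 4 were lower at an unadjusted p under 0.05 in limma, against 10.6% of all genes. Fads2, the desaturase that starts the synthesis of long polyunsaturated fatty acids (probe set TC1900001095.mm.2), read 9.53, 9.65, 9.39 and 9.31 on KO 1 to 4, against 12.59, 12.51 and 9.75 on WT 1 to 3. WT 3 lay 0.09 above the highest KO array, and the KO mean minus the mean of WT 1 and WT 2 was -3.08. Its difference over all arrays, -2.15 with a standard error of 0.633 (limma, adjusted p = 0.223), was the largest in size of the members measured above background in KO, Idi1 having only a bound. Scd1, the stearoyl-CoA desaturase, read 7.84, 7.72, 7.91 and 8.0 on KO 1 to 4, against 9.59, 9.64 and 8.01 on WT 1 to 3. Fads1, which acts downstream of Fads2, read 10.30, 10.39, 10.33 and 10.16 on KO 1 to 4, against 11.27, 11.28 and 10.19 on WT 1 to 3. Fasn, fatty acid synthase, read 11.81, 12.11, 11.92 and 11.93 on KO 1 to 4, against 12.71, 12.51 and 12.01 on WT 1 to 3. In Scd1, Fads1 and Fasn WT 3 read close to the KO arrays. Acaca, the acetyl-CoA carboxylase, read 9.97, 9.94, 9.66 and 10.12 on KO 1 to 4, against 10.10, 10.15 and 9.98 on WT 1 to 3, with an interval of the difference from -0.45 to 0.14.

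Set side by side on each array, the role groups stood further apart on WT 1 and WT 2 than on WT 3. The mean of the 16 sterol synthesis genes, relative to the KO mean of each gene, was -0.08, 0.04, -0.06 and 0.10 on KO 1 to 4, against 1.43, 1.30 and 0.32 on WT 1 to 3. That of the 5 fatty acid genes was -0.01, 0.06, -0.06 and 0.01 on KO 1 to 4, against 1.36, 1.32 and 0.09 on WT 1 to 3. On WT 1 and WT 2 these groups stood about as high as each other, while on WT 3 the sterol mean was 0.32 and the fatty acid mean 0.09. That of the 5 LXR and efflux genes was -0.02, -0.04, 0.01 and 0.05 on KO 1 to 4, against -0.23, 0.44 and 0.06 on WT 1 to 3, without a common direction on WT 1 and WT 2. Differences between these group means were not tested, since the genes of a group are not replicates. The 3 genes of intracellular transport stood at 0.65, 0.80 and 0.44 on WT 1 to 3, and the 4 of SREBP control at 0.57, 0.70 and 0.05.

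**Figure D3:**
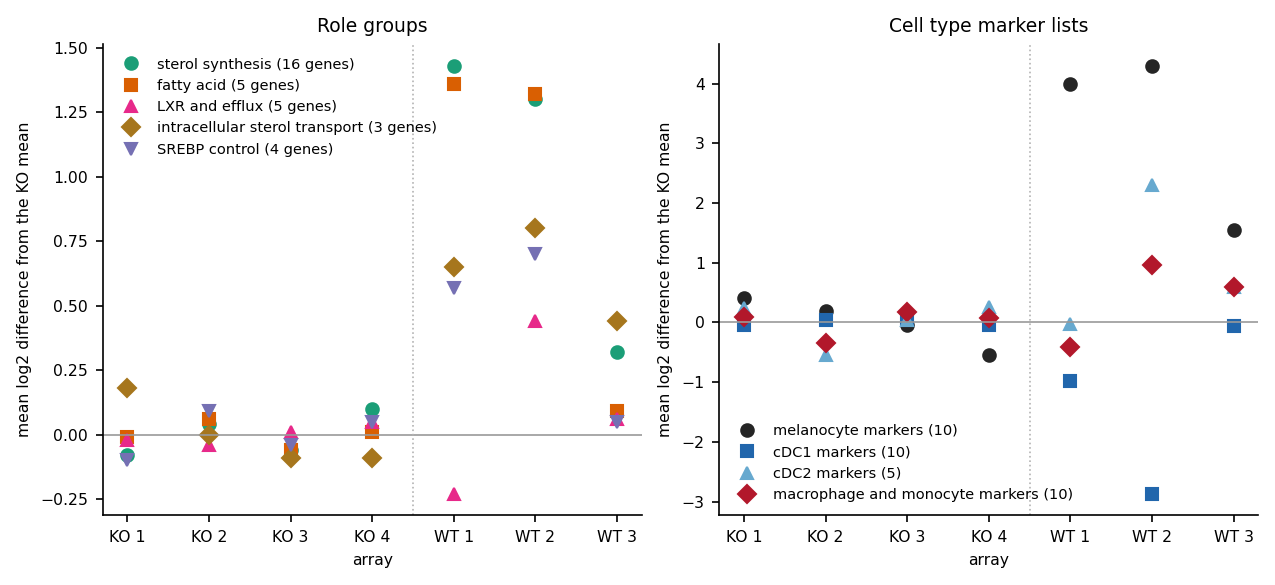
Left, mean log2 difference from the KO mean for each role group on each of the 4 KO and 3 WT arrays; right, the same for 4 lists of cell type markers. Sterol synthesis and fatty acid genes stand together at 1.30 to 1.43 on WT 1 and WT 2 but at 0.32 and 0.09 on WT 3, where melanocyte markers stand at 1.55 and cDC1 markers at -0.06.

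Against WT 3 alone, the WT array closest to the KO arrays in cDC1 markers, 0 members and 0.0% of all genes passed the adjusted threshold, and the single WT array is assumed to vary as the KO arrays do. The smallest adjusted p was 0.832 among members and 0.0657 among all genes. At an unadjusted p under 0.05 there were 8 members lower in KO, against 3.05% of all genes, and 1 higher, Scap, against 2.87%. The 8 were Idi1, at least 1.36-fold lower in KO given KO values at background, and Fdps, Sqle, Cyp51, Msmo1, Hsd17b7, Stard4 and Npc1, with differences of -0.52, -0.76, -0.63, -0.40, -0.81, -0.48 and -0.80. Their adjusted p was 0.832 to 0.834 in limma. WT 3 lay above every KO array in 19 of 33 members, against 18.1% of all genes, and below every KO array in 2, against 24.2%. By role, it lay above in 11 of 16 sterol synthesis genes, 2 of 3 transport genes, 2 of 4 SREBP control genes, 2 of 5 LXR and efflux genes and 2 of 5 fatty acid genes. For Pmvk, Sc5d, Ebp, Insig2, Abcg1, Scd1 and Fads2, WT 3 was above the highest KO array by only 0.09 log2 or less. Several marker list means also stood above every KO array on WT 3. Within those lists some markers lay among the KO arrays, such as Cd3e, Cd3d, Bst2, Tcf4, Ccr9, Cd79a and Pax5. Relative to the KO mean, melanocyte markers stood at 1.55, T cell markers (3 of 5 measured) at 0.72, macrophage and monocyte markers at 0.60, cDC2 markers at 0.59, plasmacytoid DC markers (5 of 5) at 0.45 and B cell markers (4 of 5) at 0.25, beside 0.32 for sterol synthesis. Neutrophil (-0.14), endothelial and fibroblast (-0.22), erythroid (-0.04) and cDC1 (-0.06) list means did not stand above every KO array on WT 3. The part of any marker list in the result was not tested.

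**Figure D4:**
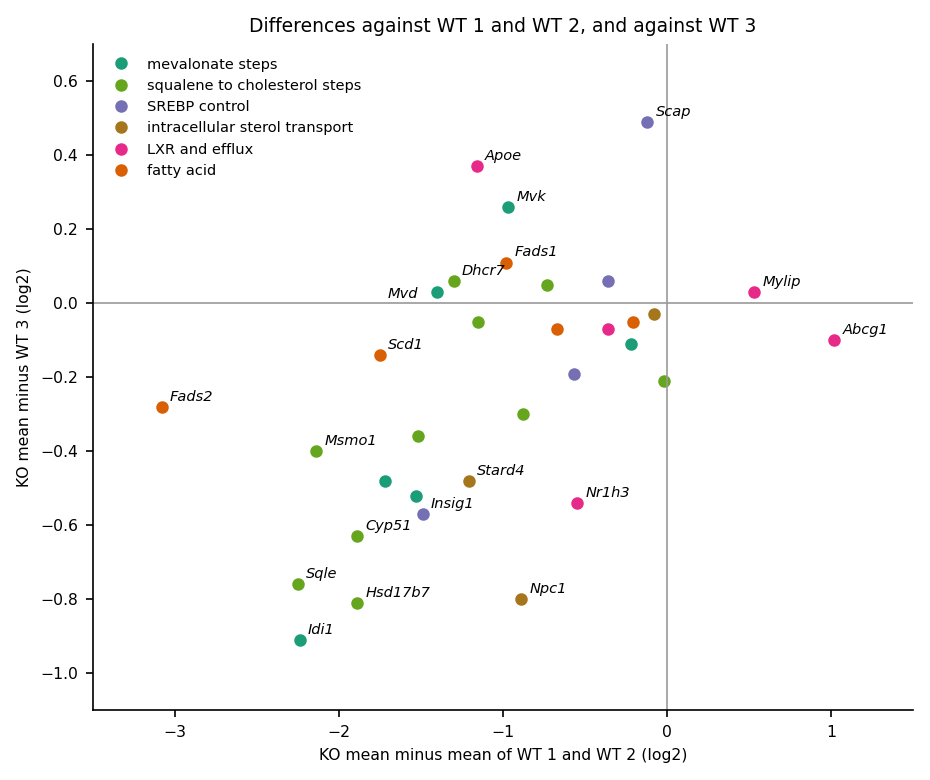
For each of the 33 members, KO mean minus the mean of WT 1 and WT 2 (horizontal, log2) and KO mean minus WT 3 (vertical, log2), coloured by role; both axes share the KO arrays. Fads2 is furthest left at -3.08 but at -0.28 on the vertical axis, while Sqle is at -2.25 and -0.76, and Mvd, at -1.40 and 0.03, lies near the horizontal line, the point of Idi1 resting on KO values at background.

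Against WT 1 and WT 2, 14 of 16 sterol synthesis genes, 4 of 5 fatty acid genes, 2 of 3 transport genes and 1 of 4 SREBP control genes were called lower in KO at an adjusted p under 0.05 in limma. Among all genes, 13.8% were called lower and 11.4% higher in this comparison. Fads2 differed by -3.08 (adjusted p = 1.44e-06), Msmo1 by -2.14 (8.56e-06) and Sqle by -2.25 (2.96e-05). In LXR and efflux, Abcg1 (1.02, adjusted p = 0.000405) and Mylip (0.53, 0.0142) were called higher and Apoe (-1.16, 0.0087) lower. Ebp, Pmvk, Npc2, Acaca, Abca1, Nr1h3, Insig2, Srebf2 and Scap were not called. These 2 arrays are the ones highest in melanocyte markers and lowest in the cDC1 marker list, Cd8a included. With arrays weighted by their fit, 23 members passed the adjusted threshold, against 22.9% of all genes, and WT 3 had the lowest weight, 0.241.

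Other genes of these pathways, 62 of 70 listed being measured, had a median difference of 0.01, with 11 lower and 7 higher in KO at an unadjusted p under 0.05, against 10.6% lower and 8.98% higher among all genes, and 0 past adjustment. The share of higher genes, 7 of 62, was close to that of all genes, and the counts per list below rest on few genes. Acetyl-CoA supply and fatty acid elongation (16 of 17 measured) held 8 of the 11, among them Me1, malic enzyme, and Elovl7, a fatty acid elongase (limma, adjusted p = 0.223 each). Me1 read 5.79 to 6.40 on KO arrays, against 10.36, 10.84 and 6.71 on WT 1 to 3, and Elovl7 5.69 to 6.30, against 7.98, 8.63 and 6.31. All KO values of both genes were at or below the negative control medians, which makes Me1 at least 5.97-fold and Elovl7 at least 1.88-fold lower in KO over all arrays. On WT 3, Elovl7 was also below the negative control median and Me1 was at it, so these bounds rest on WT 1 and WT 2. In sterol transport and hydrolysis (15 of 16 measured) 2 were lower and 0 higher: Tmem97, a sterol-regulated membrane protein, at -1.19, and Osbpl1a, an oxysterol-binding protein homolog, at -1.57. Against WT 3 alone, Tmem97 differed by -0.20 and Osbpl1a by 0.33, and against WT 1 and WT 2 by -1.69 and -2.52. In isoprenoid branches (10 of 12 measured) 1 was lower, Fntb, a farnesyltransferase subunit, at -0.63, and 2 higher, among them Coq2, of ubiquinone synthesis, at 0.60. Against WT 3 alone, Fntb differed by -0.13 and Coq2 read like the KO mean. The list of LXR partners, oxysterol and lipoprotein genes (13 of 15 measured) had 4 higher and 0 lower, with Rxrb, a retinoid X receptor, at 0.33 and Lpl, lipoprotein lipase, at 0.33, neither overlapping between groups (7.85% of all genes). Against WT 3 alone these were 0.35 and 0.23. In SREBP processing and INSIG degradation (8 of 10 measured) none passed an unadjusted p under 0.05 in limma. The values of smallest p there were Ufd1, of the degradation machinery, at 0.22 and Aup1, an adaptor in that machinery, at -0.13, and both were -0.06 against WT 3.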

How the data were processed

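Gene expression was measured on 4 KO and 3 WT arrays. The authors deposited 1 table of log2 values for 28846 probe sets, for which the submitters' processing notes name Affymetrix Expression Console 1.1 and RMA. The log2 scale was read from the values (3.68 to 14.28). Whether the 7 arrays went through RMA as 1 set was not stated in the sources at hand. Scanner files were not analysed here. RMA shrinks differences of dim genes, and the number of arrays limits precision. The platform annotation named 19572 probe sets; the one of highest mean per symbol was kept (19505 genes).

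KO was compared with WT in limma 3.58.1 (R 4.3.3; lmFit, eBayes, no covariate) over all genes, with Benjamini-Hochberg adjustment and a threshold of 0.05. Differences are KO minus WT. Background is the median of 5222 negative control probe sets per array. All members are named; of the other pathway genes, the 2 of smallest unadjusted p per list. Members and lists were chosen with earlier results of these data known. The fit was tested on simulated data with the same spread per gene in both groups. That test does not cover the wider WT spread of these arrays. The planned protein comparison was not made. Alternatives were array omission, a replicate block, scaling, a dim filter, variance models and probe set choice.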

Additional observations from a re-analysis of the deposited data

Results flagged for a closer look

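Mylip on KO 1 read 11.71, against 11.97, 11.96 and 12.00 on KO 2 to 4. Its gap to the nearest KO array was 0.870 of the whole KO range, above the critical value of Dixon's test for 4 arrays. This was 1 of 41 sets of 4 KO values examined (33 genes and 8 group means), where chance alone is set to flag about 1 in 20. WT groups of 3 arrays were not examined in this way.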

How the results depend on the processing

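Of 15 alternatives, 3 (probe set choice, trended and robust variance, dim filter) leave each member difference as it was. Over the other 12, 384 of 396 member differences kept their direction, and 22 of 33 members never reversed. All of these settings except the one without WT 1 and WT 2 kept at least 1 of those arrays. The total therefore says little about directions against WT 3 alone. In the setting without WT 1 and WT 2, 8 of 33 members reversed. Deviations of same-numbered KO and WT arrays from their group means correlated at -0.038, 0.046 and -0.017 over genes. Arrays of other numbers correlated at -0.12 to 0.15. With WT 3 far from WT 1 and WT 2, these correlations cannot decide on pairing. The numbers were not taken as pairs in the main fit. With the replicate block, 16 members were lower and 0 higher in KO at an unadjusted p under 0.05. None passed adjustment, the smallest adjusted p over all genes being 0.389 in limma. When each array was left out in turn, members higher in KO ranged from 0 to 2, and members past adjustment from 0 to 24. The 24 were without WT 3, where 13.8% of all genes were called lower and 11.4% higher. Array weights gave 23 past adjustment, against 22.9% of all genes, and the dim filter left 1 member higher. Without WT 1 and WT 2 together, 8 members were lower and 1 higher, and the mean difference was -0.32 for sterol synthesis and -0.09 for fatty acid genes, against -1.02 and -0.92 over all arrays. In that setting, which has 1 WT array, Mvk (0.26), Mvd (0.03), Nsdhl (0.05), Dhcr7 (0.06), Srebf2 (0.06), Apoe (0.37) and Fads1 (0.11) turned higher and Abcg1 (-0.10) lower. With 1 array left out in turn, Npc2 ranged from -0.15 to 0.04 (highest without WT 1) and Scap from -0.12 (without WT 3) to 0.19. Array weights gave -0.07 for Scap and 0.03 for Ebp. None of these 12 reversed values passed adjustment, and the cause was not tested. Median centring, quantile normalization, trended and robust variance and the other probe set choice gave 18 to 20 members lower and 2 higher. Where no share of all genes stands beside a count here, none was counted. Such counts do not set members apart from other genes. Signal near the negative control medians limits Idi1, Abca1 and Npc1.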
